A study of Mus musculus with 2 samples.

Results

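Ribosomal protein genes were followed in the mouse gastric epithelial line GIF-5, labelled Runx3-/-p53-/-, after its cells had been sorted on the surface protein CD133. The genes were found by name. Every non-control spot counted whose gene name begins with Rpl, Rps, Mrpl or Mrps followed by a digit, a or p, with the Rps6k kinases (10 names, 21 spots) left out. This gave 271 spots, 262 probes and 157 gene names, out of 43379 non-control spots and 41174 probes per array. Of the names, 49 are Rpl, 33 Rps, 46 Mrpl and 29 Mrps. In 156 of them at least 1 probe was well above background and was tested. The exception was Rpl3l, a striated muscle paralogue of Rpl3, whose single probe was not well above background in either fraction on either array.

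Each of 2 Agilent arrays read in 2 colours held RNA of CD133-positive GIF-5 cells in Cy3 and RNA of CD133-negative GIF-5 cells in Cy5. The fractions come from 1 cell line, so both lack Runx3 and p53, and both were grown in medium with bovine serum, stained with a phycoerythrin-coupled antibody against CD133 and separated by flow cytometry. The labels call the arrays biological replicates 1 and 2 without saying whether cultures and sorts were separate. An error or p-value here thus rests on the spread between these arrays, which may be technical, and on a variance shared over all genes. Each value is the log2 of the CD133-positive over the CD133-negative signal after loess normalisation within its array, so a negative value means less signal in the CD133-positive fraction. A mean is given ± its moderated standard error (SE, n = 2 arrays). Moderation pools a gene's own variance with that of all genes fitted. In the gene fit the pooled part has 2.86 degrees of freedom and the gene's own part 1. Rps26, with 0.185 and 0.186 on the arrays, thus still has an SE of 0.14. The dye orientation was the same on both arrays, and a dye effect cannot be told apart from the fraction.

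The cytosolic ribosome has a large subunit, whose proteins the Rpl genes encode, and a small subunit, whose proteins the Rps genes encode. It makes nearly all proteins of the cell, and its mRNAs begin with a cytosine followed by a run of pyrimidines, the 5′ terminal oligopyrimidine (TOP) tract, through which the kinase complex mTORC1 controls their translation. The mitochondrial ribosome is built from the products of the nuclear Mrpl and Mrps genes, which are imported into mitochondria, and it translates the few proteins that the mitochondrial genome encodes. Gastric epithelium renews throughout life, and ribosome production is high in dividing cells.

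The sort and the line were checked on marker genes. Prom1, which encodes CD133, was detected above background on both arrays in the CD133-positive channel and on neither in the CD133-negative one (limma adjusted p = 0.0097). Runx3 and Trp53 gave probe signal in both fractions, with log2 ratios of 0.05 and -0.05; whether these probes lie in the deleted parts is not given in the sources used here, so they check nothing. Among the epithelial markers, Krt8, Krt18, Krt19 and Cdh1 were well above background in both fractions. The summed log2 level of the 7 tested epithelial markers was 17.72 and 17.61 in CD133-positive and 18.27 and 18.36 in CD133-negative cells, with a median log2 ratio of -0.33 and 3 of 7 lower at an unadjusted p below 0.05, and 0 passed the limma test. Of all tested genes, 16% were lower at that p. The gastric epithelial markers had 3 of 8 tested genes higher (Gkn2, Tff1 and Muc1), with a summed log2 level of 17.01 and 15.63 in CD133-positive and 12.08 and 11.09 in CD133-negative cells on arrays 1 and 2. Of 6 endothelial markers, Vwf and Cdh5 were both higher and the defining markers Pecam1, Kdr, Tek and Tie1 were not well above background in either fraction; the summed log2 level of the 2 was 10.74 and 11.27 against 7.42 and 7.58. No blood cell (4 tested) or fibroblast and muscle marker (4 tested) passed the test. What part these cells' shares have in the ribosomal protein values was not tested.

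After loess, ribosomal protein genes of the 2 ribosomes had medians on opposite sides of 0, while with median centring the Mrpl (-0.10) and Mrps (-0.091) medians relative to all genes were below 0 too. The 81 cytosolic genes had a median log2 ratio of -0.30, with -0.12 on array 1 and -0.48 on array 2. The 75 mitochondrial genes had a median of 0.18 on both arrays. The median over all 15267 tested genes was -0.03. The gap between the cytosolic and mitochondrial medians was -0.30 on array 1 and -0.66 on array 2, and -0.48 ± 0.26 for the mean ratios (SD of the array values, n = 2), and had this sign under every setting tried. In bulk RNA, fewer cells with a transcript and less of it per cell cannot be told apart.

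Single genes reached the test's threshold only once. Rps23 was lower in CD133-positive cells, and no other ribosomal protein gene passed (limma, Benjamini-Hochberg adjusted over all genes tested). Over all tested genes 1.64% were called, 1.38% as higher and 0.262% as lower. Before adjustment, 27 ribosomal protein genes had p below 0.05 with a lower mean and 22 with a higher one (16% and 11.9% of all tested genes). The 2 arrays leave 1 residual degree of freedom per gene, and an exact permutation test over 2 arrays cannot give a p below 0.5.

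By subunit, the large cytosolic subunit stood lowest. Of 48 Rpl genes, 33 had a lower value in CD133-positive cells on both arrays and 4 a higher one, where 39.7% of all tested genes were lower and 32.6% higher on both. The Rpl median was -0.34, with -0.19 on array 1 and -0.56 on array 2. Of 33 Rps genes, 16 were lower and 10 higher on both arrays, and their median of -0.09 was 0.06 on array 1 and -0.21 on array 2; relative to all genes it turned positive (0.13) in the deposited processed signals. Rpl lay below Rps by 0.25 on array 1 and by 0.35 on array 2.

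The mitochondrial subunits resembled each other in their medians. Of 46 Mrpl genes, 26 were higher and 9 lower on both arrays, with a median of 0.19 (0.21 and 0.17). Of 29 Mrps genes, 18 were higher and 5 lower on both arrays, with a median of 0.16 (0.15 and 0.18). Relative to all tested genes, these medians were 0.22 and 0.19 after loess but -0.10 and -0.09 where each array was only centred on its median. The difference between Mrpl and Mrps was 0.02 ± 0.05 (SD, n = 2), and its sign differed between the arrays.

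**Figure D1:**
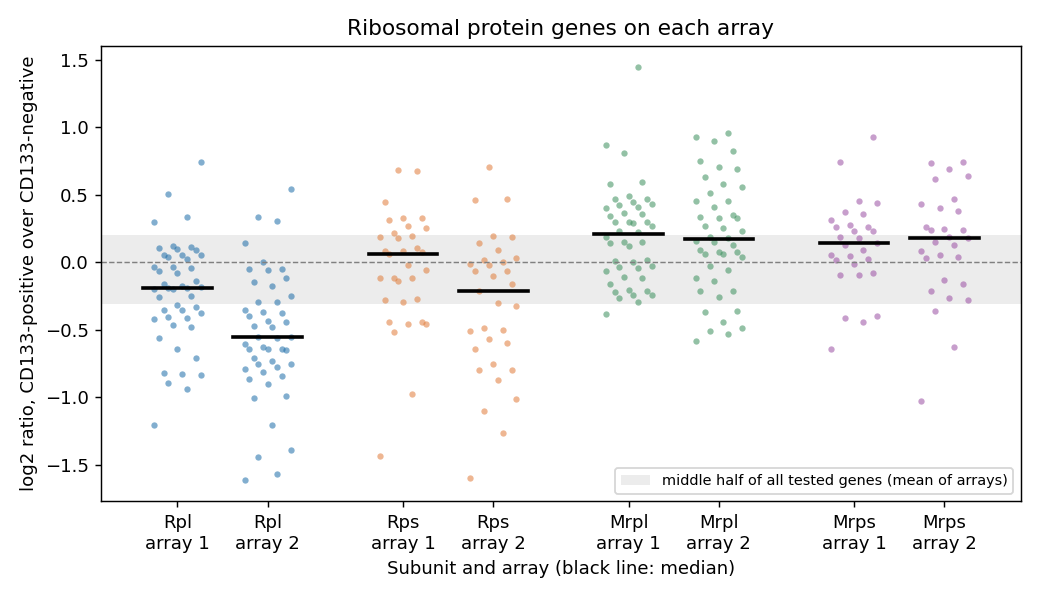
Log2 ratio of CD133-positive over CD133-negative cells (vertical axis) of every tested ribosomal protein gene, by subunit and array (horizontal axis). Each point is 1 gene, black lines are medians, and the grey band runs from the lower to the upper quartile of all tested genes. The Rpl points reach lowest and their median is -0.19 on array 1 and -0.56 on array 2, the Rps median is 0.06 and -0.21 (relative to all genes it turns positive in the processed signals), and the Mrpl and Mrps medians lie between 0.15 and 0.21 after loess (below 0 relative to all genes after median centring).

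The arrays differed more for cytosolic than for mitochondrial genes. On array 2 the ratio was lower than on array 1 in 68 of 81 cytosolic genes (84.0%) and in 37 of 75 mitochondrial genes (49.3%), with 56.7% over all tested genes. Across the 156 genes, the values of the 2 arrays had a Pearson r of 0.846 and a Spearman rho of 0.831, a description over genes that share both arrays and are not independent. The direction was the same on both arrays in 77.6% of ribosomal protein genes and in 72.2% of all tested genes.

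**Figure D2:**
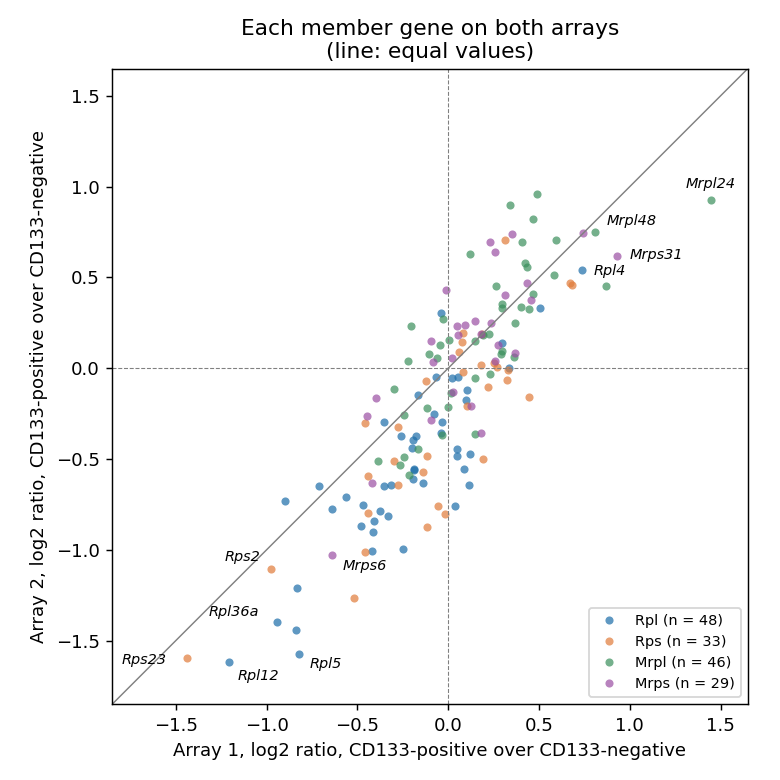
Log2 ratio of each ribosomal protein gene on array 1 (horizontal axis) against array 2 (vertical axis); colours are subunits and the diagonal marks equal values. Most cytosolic points lie below the diagonal, 68 of 81, while the mitochondrial points lie on both sides of it, and Rps23 and Rpl12 sit lowest and Mrpl24 farthest to the right.

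The sequence around the annotated start of these genes is shown because the start is where a TOP tract would lie. RefSeq promoter sequences (GRCm38.p6) matched 127 of the 156 genes by symbol. Of these, the 6 lowest and 3 highest cytosolic genes and the 3 highest and the lowest mitochondrial gene are shown, and Rpl35 is added only as an example of a long tract across the annotated start. Each line gives 30 bases, 15 on either side of the annotated start, 5′ to 3′ on the gene's strand. Capitals run from the first cytosine within 5 bases of the start that at least 4 further pyrimidines follow. A pyrimidine run that reaches further upstream, as in Rpl7a and Rpl35, is in capitals only from that cytosine.
Rps23 (chr13:90923107-90923136, plus strand): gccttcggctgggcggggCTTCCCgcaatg
Rpl12 (chr2:32961697-32961726, plus strand): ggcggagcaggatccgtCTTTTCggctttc
Rpl5 (chr5:107900513-107900542, plus strand): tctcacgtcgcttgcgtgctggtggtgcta
Rpl36a (chrX:134585639-134585668, plus strand): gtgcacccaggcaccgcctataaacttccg
Rpl7a (chr2:26910792-26910821, plus strand): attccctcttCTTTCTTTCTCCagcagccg
Rps2 (chr17:24720048-24720077, plus strand): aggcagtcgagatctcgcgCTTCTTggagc
Rpl35 (chr2:39005117-39005146, minus strand): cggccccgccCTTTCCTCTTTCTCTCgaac
Rps21 (chr2:180257364-180257393, plus strand): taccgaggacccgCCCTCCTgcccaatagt
Rps25 (chr9:44407699-44407728, plus strand): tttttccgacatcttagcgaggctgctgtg
Rpl4 (chr9:64173372-64173401, plus strand): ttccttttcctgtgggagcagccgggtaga
Mrpl24 (chr3:87919529-87919558, plus strand): ttcctgtttcctgtccattttgtagcaacg
Mrpl48 (chr7:100608287-100608316, minus strand): gagcgggggagtcgcgcactcaccgctctg
Mrps31 (chr8:22411325-22411354, plus strand): cggaatccaaaaggagcggaacagtgcagg
Mrps6 (chr16:92058321-92058350, plus strand): tgctttcgccgtccgggagctgaccggccg
Such a tract was marked in 4 of the 6 lowest cytosolic genes, not in Rpl5 or Rpl36a, and among the 3 highest in Rps21 but not in Rps25 or Rpl4. None of the 4 mitochondrial genes shown has one marked. A run of this form further upstream, as in Rpl4 and Mrps6, begins outside those 5 bases and is not marked.

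In 6 of 36 matched Rpl and 6 of 25 Rps genes, at least 4 pyrimidines followed a cytosine at the annotated start. This held in 0 of 40 Mrpl genes, 0 of 26 Mrps genes and 2.49% of all 27025 promoters. The pyrimidine run may begin upstream of that cytosine, as in Rpl35. Allowing the cytosine 5 bases either way, such a tract was present in 15, 12, 11 and 3 of the member genes, and in 18.5% of all promoters. The 27 cytosolic genes with a tract so placed had a median log2 ratio of -0.23, and the 34 without one -0.32. The annotated start is that of the RefSeq transcript, and a tract without such a cytosine within 5 bases of it is not counted. One that also reaches further upstream is counted.

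Other letters searched in the promoters, on both strands from 250 bases before to 50 after the start, were CCGGAAG (a core bound by ETS factors), AAGATGGC (YY1), TATAAA (the TATA box) and the palindromic core of the NRF1 motif. CCGGAAG was present in 37.0% of the 127 promoters and in 9.12% of all promoters, AAGATGGC in 12.6% and 2.88%, the NRF1 core in 3.15% and 0.977%, and TATAAA in 7.87% and 14.2%. These matches are a description and not sites. The members with CCGGAAG had a median log2 ratio of -0.39 among 24 cytosolic genes and 0.20 among 23 mitochondrial genes, and those without it -0.28 among 37 and 0.05 among 43.

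One pair of members shares a start region. Mrpl46 and Mrps11 lie on opposite strands of chromosome 7 with annotated starts 42 bases apart, the only pair of the 127 within 1000 bases. Mrpl46 had log2 ratios of 0.49 and 0.96 and Mrps11 of 0.26 and 0.64 on arrays 1 and 2. Both were above 0 on both arrays and larger on array 2, and neither passed the test (limma adjusted p = 0.11 and 0.19).

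Among proteins of the small cytosolic subunit, Rps23, which sits at the decoding centre, had the largest difference. Its normalised log2 level was 15.58 on both arrays in CD133-positive cells and 17.02 and 17.18 in CD133-negative cells. The 2 fractions did not overlap, and the CD133-positive values were equal to 2 decimals. These levels rest on spot intensities that were quantile-normalised between the arrays. The share of all tested genes without overlap was not counted. The log2 ratio was -1.52 ± 0.14 (-1.44 and -1.60 on arrays 1 and 2), a 2.86-fold lower signal (limma adjusted p = 0.042). Rps23 has 1 probe, so no second probe could be compared, and over the other settings its limma adjusted p ran from 0.0071 to 0.50, with 0.083 in the deposited processed signals.

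Rps2, a protein at the mRNA entry of the small subunit, followed with a level of 15.60 and 15.68 in CD133-positive and 16.57 and 16.79 in CD133-negative cells. The Rps2 ratio was -1.04 ± 0.14 (limma adjusted p = 0.066). Rps20, a protein of the head of the small subunit, had -0.52 and -1.27 on arrays 1 and 2, and Rps4x had -0.44 and -0.80. Both were lower on array 2 than on array 1, and neither passed the test.

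Other small-subunit genes lay above 0. Rps21 had log2 ratios of 0.68 and 0.46, and Rps25, which internal ribosome entry sites need, had 0.67 and 0.47. Their CD133-positive levels were 15.88 to 15.90 and 16.07 on both arrays, and their CD133-negative levels 15.22 to 15.42 and 15.40 to 15.60. Their mean ratios were 0.57 for each (limma adjusted p = 0.12 for each). Rps27l, a paralogue of Rps27 known as a target of p53, had 0.31 and 0.71 in these cells without p53. Rps26 had 0.19 on both arrays and Rps15a 0.25 and 0.03, both below 0 where each array was only centred on its median. Rps6, the phosphorylation target of the S6 kinases, had -0.12 and -0.88, and Rpsa, which also serves as the laminin receptor, had -0.05 and -0.76; neither passed.

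In the large cytosolic subunit no gene passed the test, and the lowest ratio belonged to Rpl12, which forms the base of the factor-binding stalk. Its level was 15.41 and 15.15 in CD133-positive and 16.62 and 16.77 in CD133-negative cells. The Rpl12 log2 ratios were -1.21 and -1.62, with a mean of -1.41 ± 0.17 (limma adjusted p = 0.061). Over the other settings its limma adjusted p ran from 0.0071 to 0.52. It was called lower without background correction (0.047), with an offset of 16 (0.044), with scaling between arrays (0.034) and with an intensity trend (0.038). Of all genes, 0.779%, 0.983%, 2.19% and 2.14% were called lower there, against 0.262% in the main setting. It was also called with 4 separate channels (0.025), which leaves out the pairing, and with median centring over all (0.0071) or tested probes (0.030). There 3.36%, 63.3% and 13.7% of all genes were called lower.

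Rpl5, which binds the 5S ribosomal RNA, had a ratio of -0.82 on array 1 and -1.57 on array 2, a mean of -1.20 ± 0.23 (limma adjusted p = 0.088). Rpl36a had -0.94 and -1.40, Rpl8, a core protein near the peptidyl transferase centre, had -0.84 and -1.44, and Rpl7a had -0.83 and -1.21. Together with Rps23, Rpl12, Rpl5 and Rps2, these were the members at least 2-fold lower in their mean. The share of all tested genes at that mean was not counted. Lower by that much on both arrays were Rpl12 and Rps23, 2 of 156, where 2.12% of all tested genes were. None of the 156 was 2-fold higher on both, where 2.5% of all tested genes were.

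A few large-subunit genes were higher on both arrays. Rpl4, whose extension lines the exit tunnel for the nascent chain, had levels of 14.07 and 14.11 in CD133-positive and 13.33 and 13.56 in CD133-negative cells. Its ratios of 0.74 and 0.54 gave a mean of 0.64 ± 0.14 (limma adjusted p = 0.10). The others were Rpl36al (0.51 and 0.33), Rpl27a (0.30 and 0.14) and Rpl18 (0.33 and 0.00), of which Rpl27a and Rpl18 lay below the median of all genes under median centring. None of the 4 passed the test.

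Proteins of the factor-binding stalk and those that bind Mdm2 lay below 0. The stalk is formed by Rplp0, Rplp1 and Rplp2 and recruits the translation factors that hydrolyse GTP. Rplp0 had log2 ratios of -0.42 and -1.01, Rplp1 of -0.64 and -0.78 and Rplp2 of -0.03 and -0.29, and relative to all genes the deposited processed signals put Rplp2 above 0. The median of the 3 was -0.71. The probe that represents Rplp0 carries the older name Arbp in the files. A group of 7 proteins, Rpl5, Rpl11, Rpl23, Rpl26, Rps3, Rps7 and Rps14, is known to bind Mdm2, the ubiquitin ligase of p53, when ribosome assembly is disturbed, and p53 is deleted in both fractions. Their median was -0.50, 6 of 7 were lower on both arrays, and 0 passed the test, with 4 at an unadjusted p below 0.05. Of all tested genes, 39.7% were lower on both arrays and 16% lower at that p. The median of the mean log2 intensity was 15.7 for these 7 and 16.2 for the stalk. Other genes with an intensity of 15 to 16 had a median ratio of -0.25, and those above 16 had -0.59. Rpl11 had -0.35 and -0.65, Rpl26 had -0.48 and -0.87, and Rps14 had 0.19 and -0.50, with a mean above that of all genes in the processed signals. A second, dimmer Rpl11 probe had -0.96 and 0.16.

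Some paralogues of one protein had unlike ratios and others like ones. Rpl36a had -1.17 ± 0.18 and Rpl36al 0.42 ± 0.14. Rpl22, an RNA-binding protein of the large subunit, had -0.63 ± 0.14 and Rpl22l1 -0.02 ± 0.14. A second, dimmer Rpl22 probe of the same transcript had 0.42 on array 1 and -1.33 on array 2, so the SE of Rpl22 holds for 1 probe. Rpl7 had -0.33 ± 0.14 and Rpl7l1 0.13 ± 0.16, while Rps27 had 0.16 ± 0.16 and Rps27l 0.51 ± 0.17. In each of these pairs the longer-named paralogue had the higher mean and the dimmer spot. Mean log2 intensities were 15.2 and 13.4 for Rpl36a and Rpl36al, and 14.8 and 13.8 for Rpl22 and Rpl22l1. They were 15.9 and 11.7 for Rpl7 and Rpl7l1, and 15.8 and 14.3 for Rps27 and Rps27l. What part brightness has here was not tested. A further Rpl36a probe had a less negative mean, given below. A dimmer Rpl7l1 probe had -0.16 and -0.19. With the dimmest probe the sign relative to all genes turned in Rpl7, Rpl7l1 and Rpl22l1. The 3 mitochondrial paralogues Mrps18a, Mrps18b and Mrps18c had 0.12, 0.04 and 0.21, which lie within about 1 SE of each other. These differences between genes were not tested, and Rpl22l1, Rpl7l1 and Rps27 lay below the median of all genes under median centring. Rps4x had -0.62, Rpl3 -0.62, Rpl39 -0.37 and Rpl10 -0.20 with no tested partner among the 15 tested genes of the list. Ribosomal protein genes have many processed pseudogenes in the mouse genome, and whether a probe also reads their transcripts was not tested.

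In the mitochondrial large subunit Mrpl24 had the highest ratio of all 156 genes. Its level was 11.72 and 11.57 in CD133-positive and 10.27 and 10.64 in CD133-negative cells, ratios of 1.45 and 0.92. The mean was 1.19 ± 0.19 (limma adjusted p = 0.076). Over the other settings its limma adjusted p ran from 0.038 to 0.53, with 0.047 under an intensity trend in the variance. Under that trend 494 of 15267 genes were called higher. Mrpl48 had 0.81 and 0.75, Mrpl46 0.49 and 0.96, Mrpl23 0.87 and 0.45, and Mrpl4 0.59 and 0.71. The lowest were Mrpl36 (-0.38 and -0.51), Mrpl21 (-0.21 and -0.59), Mrpl32 (-0.27 and -0.53), Mrpl16 (-0.24 and -0.49) and Mrpl49 (-0.17 and -0.45). None of the 46 passed the test, with 12 higher and 1 lower at an unadjusted p below 0.05, where 11.9% and 16% of all tested genes were.

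In the mitochondrial small subunit the ends of the range were Mrps31 and Mrps6. Mrps31 had levels of 13.03 and 12.80 in CD133-positive and 12.10 and 12.19 in CD133-negative cells, a mean ratio of 0.77 ± 0.16 (limma adjusted p = 0.091). Mrps34 had 0.74 on both arrays (limma adjusted p = 0.083). Mrps14 (0.35 and 0.74), Mrps28 (0.23 and 0.69) and Mrps12 (0.44 and 0.47) were also higher on both.

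Mrps6 stood apart from the rest of its subunit at the low end. Its levels were 12.73 and 12.58 in CD133-positive and 13.37 and 13.61 in CD133-negative cells, and its mean ratio was -0.84 ± 0.17 (limma adjusted p = 0.089). A second Mrps6 probe gave -0.59 and -1.03, close to the -0.64 and -1.03 of the first. Below 0 on both arrays were also Mrps27, a pentatricopeptide repeat protein (-0.42 and -0.63), Mrps36 (-0.45 and -0.26), Mrps2 (-0.40 and -0.16) and Mrps30 (-0.09 and -0.28). Mrps36 is known as a subunit of the 2-oxoglutarate dehydrogenase complex and Rps19bp1 as a regulator of Sirt1, so these 2 names are not ribosomal subunits. Without them the medians were 0.17 for Mrps and -0.12 for Rps, a step chosen after the data were seen.

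Several cytosolic proteins have a mitochondrial homologue at the same place in the other ribosome, and these pairs were picked after their values were seen. Rps23 had -1.52 and its homologue Mrps12 0.45. Rpl12 had -1.41 and Mrpl11 -0.20, Rpl5 had -1.20 and Mrpl18 0.37, and Rpl8 had -1.14 and Mrpl2 0.21. Rps2 had -1.04 and Mrps5 0.15. Rpl4 and Mrpl4, by contrast, were both above 0, at 0.64 and 0.65. The cytosolic member of each of the first 5 pairs was the lower, as their choice among the lowest cytosolic genes favours.

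Ribosomal proteins that the name rule misses gave a similar picture. Fau, the precursor of a small-subunit protein fused to a ubiquitin-like domain, had -0.45 and -1.23, and Rack1, a scaffold on the small subunit, had -0.49 and -1.17. The mitochondrial Dap3 had 0.48 and 0.43, Gadd45gip1 0.64 and 0.29, and Mrpl58 0.56 and 0.48. None of the 10 such genes passed the test, with 3 higher and 2 lower at an unadjusted p below 0.05. Of all tested genes, 11.9% and 16% were.

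Single probes gave a picture like that of the genes. Of 76 tested Rpl probes 48 were lower and 6 higher on both arrays, of 57 Rps probes 26 and 18, of 69 Mrpl probes 14 and 33, and of 48 Mrps probes 9 and 27, where 39.2% of all 23173 tested probes were lower and 32% higher on both. Their medians were -0.28, -0.06, 0.09 and 0.12, so Mrps lay above Mrpl over probes and below it over genes. One probe, that of Rps23, passed the test (limma adjusted p = 0.040), where 1.36% of all tested probes did, 1.15% as higher and 0.203% as lower.

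Most genes with several probes gave like values on them. Of 70 ribosomal protein genes with at least 2 tested probes, the brightest and second brightest differed by a median of 0.10 in size, against 0.14 over all 5642 such genes. The difference was above 0.5 in 6 of the 70 (8.57%) and in 10.3% of all such genes, and the probes had opposite mean signs in 13 (18.6%) and in 16.8%. No difference passed the test in ribosomal protein genes or in any of the 5642 (limma, adjusted over all 5642), with 13 and 1124 (19.9%) at an unadjusted p below 0.05. Among ribosomal protein genes the smallest adjusted p was 0.17. The self-test on simulated ratios covered only the gene fit.

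There were 3 genes with 4 tested probes. The 4 Rpl29 probes had means from -0.30 to -0.16, all lower on both arrays. The 4 Mrps5 probes had means from 0.14 to 0.32, all higher on both arrays. The 4 Mrpl3 probes had means from -0.19 to 0.03, of which 1 was lower on both arrays and the others had opposite signs on the arrays. Both Rps2 probes were below 0 by about the same amount, at -1.04 and -0.99.

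Some genes went 2 ways. In Rpl23 the brighter probe had -0.37 and -0.79 and the dimmer probe 0.47 and 0.23, a difference of -0.93 ± 0.09 (limma adjusted p = 0.17). The brighter one lies on the 5′ side, and both are assigned to the same RefSeq transcript. In Rps20 the brighter probe had -0.52 and -1.27 and the dimmer 0.18 and -0.28, in Rps4x -0.44 and -0.80 against 0.29 and 0.15, and in Rps24 -0.30 and -0.51 against 0.35 and 0.09. In these 3 the dimmer probe is assigned to a transcript outside the curated RefSeq set. Its mean log2 intensity was 7.88, 7.07 and 7.90, against 16.03, 15.55 and 15.38 on the brighter probe. In Rpl23 the brighter and dimmer probes had 15.52 and 13.03. Mrpl52 went the other way, with 0.43 and 0.58 on the brighter and -0.27 and 0.07 on the dimmer probe. Their mean log2 intensities were 12.42 and 6.71. What part the low signal of the dim probes has in these gaps was not tested.

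The remaining wide gaps lay within one direction or near it. Rpl7a had -0.83 and -1.21 on its brightest probe, -0.28 and -0.66 on the next and 0.12 and -0.32 on the dimmest. Rplp0 had -0.42 and -1.01 on the brighter and a mean of -1.21 on the dimmer probe, and Rpl19 -0.33 and -0.82 against 0.16 and -0.38. Of the 3 Rpl36a probes, 2 had means of -1.17 and -1.33 and the other one -0.22. Among the ribosomal protein genes named here, the sign relative to all genes turned with the dimmest probe in Rpl7, Rpl7l1, Rpl22l1, Rpl23, Rps3, Rps4x, Rps15a and Mrpl52.

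**Figure D3:**
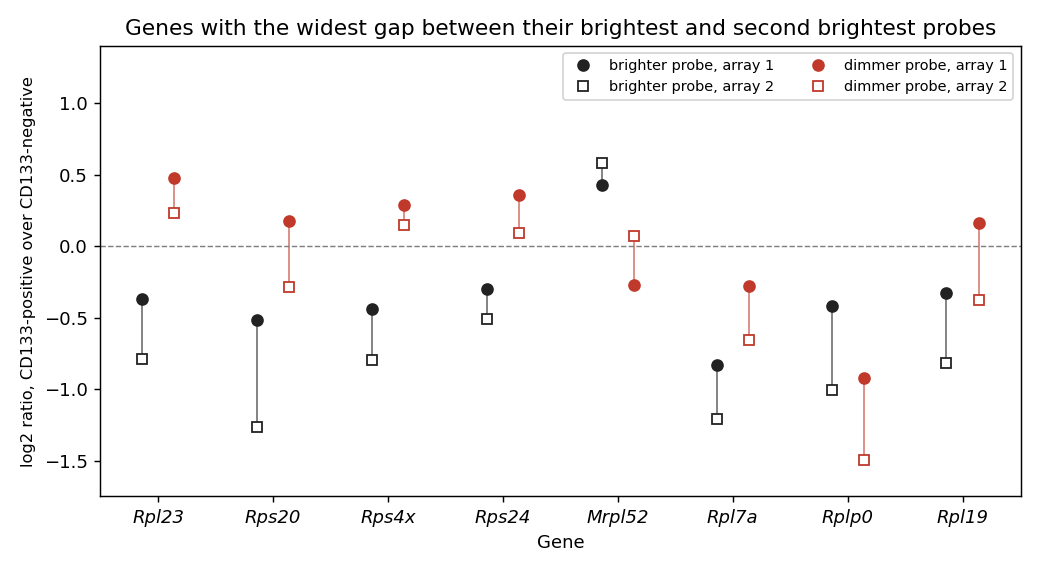
Log2 ratio (vertical axis) of the brightest (black) and second brightest (red) tested probe of the 8 ribosomal protein genes with the widest gap between them (horizontal axis); filled circles are array 1 and open squares array 2. In Rpl23, Rps4x and Rps24 the black symbols lie below 0 and the red ones above it on both arrays, while in Rplp0 and Rpl7a both probes lie below 0. The red probes of Rps20, Rps4x, Rps24 and Mrpl52 are dim, with a mean log2 intensity from 6.71 to 7.90.

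Among the brightest spots, brightness moved with the ratio. Most cytosolic ribosomal protein probes are among the brightest on the array, with a median mean log2 intensity of 15.2 for Rpl and 15.6 for Rps against 12.1 for Mrpl, 11.8 for Mrps and 9.33 over all tested genes. Below 15, the medians of other genes lay between -0.07 and 0.04 in every brightness bin. In the bin from 14 to 15, Rpl genes had -0.26 (10 genes), Rps genes 0.07 (6 genes) and other genes -0.04 (287 genes). Among other genes of brightness 15 to 16, the median log2 ratio was -0.25 (128 genes), and above 16 it was -0.59 (20 genes). The Rpl genes had -0.57 (17 genes) and -0.54 (10 genes) in the same 2 bins. The Rps genes had 0.06 (16 genes) and -0.49 (8 genes). Above 16, then, Rpl, Rps and other genes had like medians, and between 15 and 16 the 2 cytosolic subunits lay on either side of the other genes. Fewer than 20 genes stand behind each of these ribosomal protein medians.

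The scanner read bright spots from a scan at lower gain, scaled up, per the flags in the files. Both channels came from that scan on both arrays in 17 Rpl and 17 Rps genes, with medians of -0.40 and -0.15, and in 75 other genes with a median of 0.00. Red alone came from it in 16 Rpl and 7 Rps genes, with medians of -0.34 and 0.06, and in 515 other genes with -0.19. Where neither channel came from it, 7 Rpl genes had a median of 0.0019, 2 Rps genes 0.14 and 14328 other genes -0.03. The other 8 Rpl and 7 Rps genes, mixed between the arrays, had -0.47 and -0.41, and 193 other genes -0.09. The lower Rpl medians thus lay in the genes with at least 1 channel read at low gain. The part of brightness, gain and dye in the ribosomal protein ratios was not tested. With the ribosomal protein spots left out of the loess fit, an alternative chosen after seeing the data, the medians relative to all genes were -0.34 for Rpl and -0.09 for Rps, 0.21 for Mrpl and 0.19 for Mrps.

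**Figure D4:**
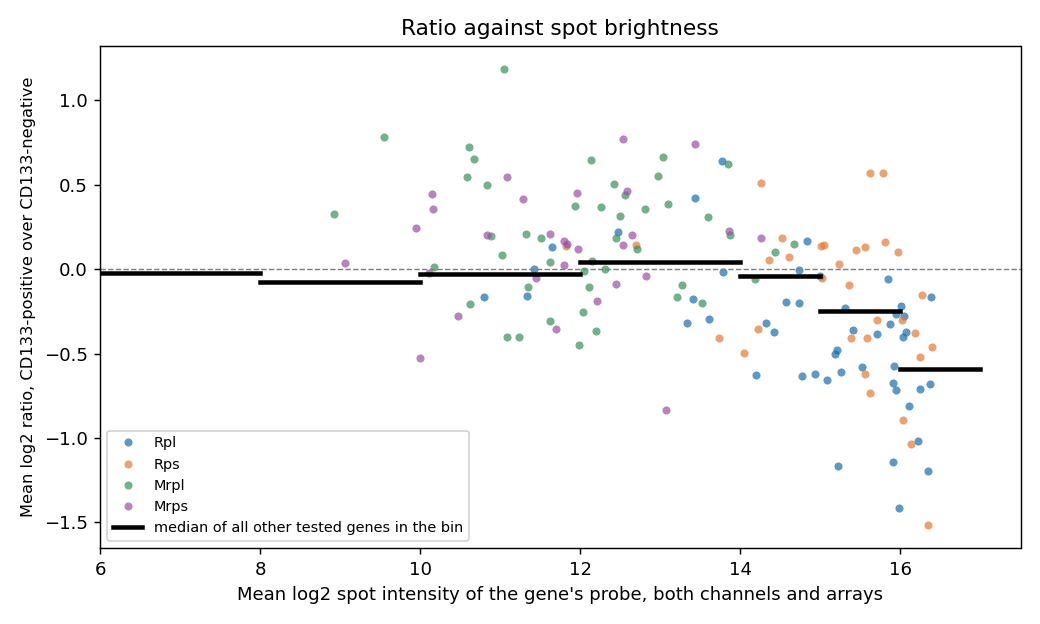
Mean log2 ratio (vertical axis) against the mean log2 spot intensity over both channels and arrays (horizontal axis) for each ribosomal protein gene, coloured by subunit. Black bars are the medians of all other tested genes in each brightness bin, and they fall to -0.25 between 15 and 16 and to -0.59 above 16; 10 Rpl and 8 Rps points lie above 16, and 17 Rpl and 16 Rps points between 15 and 16.

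Genes that share a pathway with ribosomal proteins were set beside them. None of them passed the test in any of the lists described here, where 1.64% of all tested genes did. On both arrays, 14 of 20 other mRNAs known to carry a TOP tract were lower and 4 higher. The shares of all tested genes were 39.7% and 32.6%. The list's median was -0.44 (-0.25 and -0.53). The intermediate filament gene Vim had -1.19 and -2.21, Eef1g, a subunit of the elongation factor that delivers tRNA, had -1.03 and -1.60, and Pabpc1, the poly(A)-binding protein, had -1.16 and -1.37. At the other end were Slc25a5 (0.19 and 0.51), Eif3e (0.39 and 0.15) and Hnrnpa1 (0.35 and -0.06), all below the median of all genes under median centring. The TOP list thus had a median near that of the Rpl genes, and like them it was lower on array 2, in 18 of 20 genes.

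Lists of ribosome production and its regulation had medians from 0.02 to 0.14. Those of the 2 mitochondrial lists below, 0.14 and 0.11, lie within that range. The 83 tested ribosome assembly factors had a median of 0.10, but -0.08 on array 1 and 0.19 on array 2, opposite to the shift of the cytosolic ribosomal proteins between the arrays. Their range ran from Utp15 (-1.12 and -0.54) and Gnl3l (-0.61 and -0.91) to Tcof1 (-0.04 and 1.31). The 22 genes of RNA polymerase I and ribosomal DNA transcription had a median of 0.02, from Polr2k (-0.60 and -0.53) to Polr1a, the largest subunit (0.24 and 0.98), whose sign turned with the dimmest probe. The 17 genes of mTORC1 and TOP regulation had a median of 0.14, with -0.07 and 0.19 on the arrays. There Mtor, the kinase, had -0.37 and -0.48, Eif4ebp1, which it inhibits, -0.23 and -0.83, Tsc1, its upstream brake, -0.79 and -0.28, Mlst8, its partner, 0.56 and 0.71, and Tial1, which binds TOP mRNAs, 0.73 and 1.33.

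Translation factors of the 2 compartments differed in their medians. Beside the counts that follow, 39.7% of all tested genes were lower and 32.6% higher on both arrays. The 49 tested cytosolic factors had -0.14, with 25 lower and 13 higher on both arrays, from Eef1g and Pabpc1 to Eif3g (0.58 and 0.96). Eif1ax, which takes part in start codon scanning, had -1.09 and -1.32, and its sign turned with the dimmest probe. The 36 genes of mitochondrial translation and ribosome assembly had 0.14, with 20 higher and 7 lower on both arrays, and the 21 mitochondrial aminoacyl-tRNA synthetase genes 0.11, with 12 higher and 3 lower. Mtif2, the mitochondrial initiation factor, had 0.61 and 0.63 and Qrsl1, which makes glutaminyl-tRNA in mitochondria, 0.42 and 0.65. Mtrf1, a release factor, had -1.04 and -1.88, Gfm2, which recycles mitochondrial ribosomes, a mean of -0.83 ± 0.16 (the sign turned with the dimmest probe), and Lars2, the leucyl-tRNA synthetase, -0.81 and -0.83. The 18 ribosomal protein genes mutated in Diamond-Blackfan anaemia had a median of -0.34, with 12 lower and 4 higher on both arrays, and Rps19, the most often mutated one, had 0.27 and 0.00.

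**Figure D5:**
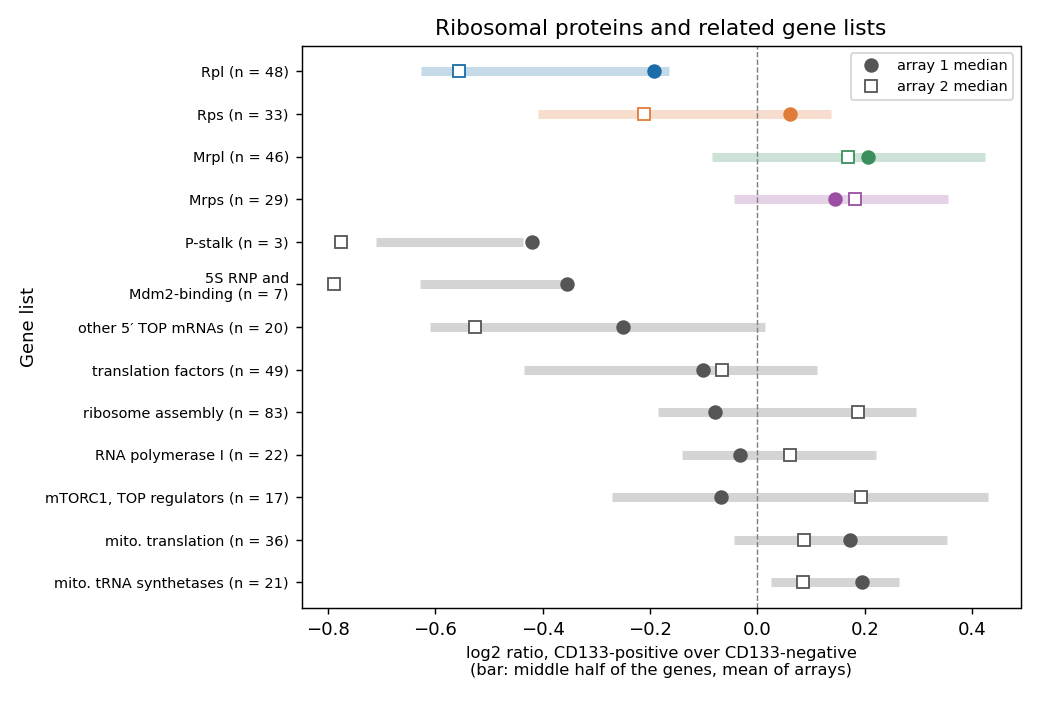
Median log2 ratio (horizontal axis) on array 1 (filled circles) and array 2 (open squares) for the 4 subunits and for related gene lists (vertical axis, with the number of tested genes); bars span the quartiles of the genes. The Rpl, stalk, Mdm2-binding and other TOP lists lie below 0 on both arrays, the mitochondrial lists lie above 0 after loess (Mrpl and Mrps below 0 relative to all genes after median centring), and the Rps median crosses 0 between the arrays.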

How the data were processed

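The 2 scanner files hold spot and background intensity per channel, unnormalised, as the authors deposited them. Per the file headers, they came from version 9.5.3.1 of Agilent Feature Extraction, which also made the background-subtracted, dye-normalised processed signals. A deposited log10 ratio is Cy5 over Cy3, and its deposited p-value comes from the program's error model; neither was used for a main result. The value table equals the log10 ratios in 100% of spots (tolerance 0), with a median of 0 per array.

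Intensities were background-corrected (normexp, offset 50) and loess-normalised within each array, control spots at weight 0. Flagged spots were left out and spots of a probe averaged. A log2 level is the probe's mean log2 intensity, quantile-normalised between the arrays, plus or minus 0.5 times its log2 ratio. A probe was tested if at least 50% of its unflagged spots were well above background in Cy3 or in Cy5 on both arrays (23173 probes, 15267 genes). A gene was represented by its brightest tested probe, and names came from a RefSeq table (GRCm38.p6). Two-sided tests used limma 3.58.1 in R 4.3.3 with Benjamini-Hochberg adjustment over all rows at 0.05. The 2 arrays are the replicates, and each ratio pairs the fractions within an array. Both arrays lie on 1 slide with 1 scan time, so no batch could be compared, and the number of arrays limits the precision. No spot was saturated (0). On simulated ratios over 15267 genes, 74% of genes changed by 1.5 (log2) and 96% of those changed by 2 were recovered, with 15 false calls. Members and gene lists were chosen with earlier results of these data known.

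Named genes were those called, the 5 highest and 5 lowest per subunit with one direction on both arrays, the 8 widest probe gaps, the stalk, Mdm2-binding and paralogue lists, the 3 highest and lowest of each list (not all printed), and Prom1, Runx3 and Trp53. Others are named where a homologue, a neighbour, a probe set or a known role is described, chosen after their values were seen. Some genes that this rule names are not reported here.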

Additional observations from a re-analysis of the deposited data

How the results depend on the processing

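Under 16 alternatives planned for these results and 1 added, the number of ribosomal protein genes called lower was 1 (Rps23) in the main setting and 1 with both channels required above background, with the mean of a gene's probes, with the dimmest probe, and with ribosomal protein spots left out of the loess fit. It was 2 without background correction or with an offset of 16, 5 with scaling between arrays, 3 (and 1 higher) with an intensity trend, and 0 with the processed signals, the value table, no moderation or no filter on dim probes (limma; 20 of 156 at an unadjusted p below 0.05 with the processed signals, 17 without moderation and 69 without a filter). Median centring in place of loess gave 142 over all probes, where the median of all genes moved to -0.75, and 44 (and 1 higher) over the tested probes. Treating the 4 channels as separate samples, with no replicate block, gave 11 lower and 4 higher. Over all genes the share called lower was 0.262% in the main setting, 63.3% and 13.7% with the 2 centrings and 2.19% with scaling. It was 2.14% with the trend, 3.36% without the block, 0.779% without background correction, 0.983% with offset 16 and 0.616% with the processed signals. At an unadjusted p below 0.05 (limma), all genes numbered 3770 with the processed signals and 1507 without moderation (of 15267). Without a filter they numbered 5466 of 27667. The numbers of called ribosomal protein probes were 1 in the main setting, 2 without background correction, 3 with offset 16, 217 and 68 with the 2 centrings, 7 with scaling, 6 with the trend, 17 without the block, and 0 with the processed signals, the value table, no moderation and no filter. Differences between probes of one gene had 4 calls with either centring. The share of higher calls among all genes was 84.1% after loess and 4.76% and 48.9% after the 2 centrings, 55.8% with scaling, 60.2% with the trend and 51.3% without the block, 70.5% without background correction, 72.6% with offset 16 and 100% without a filter.

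Relative to all genes, the medians under either centring were -0.84 for Rpl, -0.59 for Rps, -0.10 for Mrpl and -0.091 for Mrps. With the processed signals or value table Rps was 0.13, Mrpl 0.24 and Rpl minus Rps -0.315. Mrpl was 0.19 without a filter and 0.23 with the dimmest probe, where Mrps was 0.14 and Mrpl minus Mrps 0.088. Without array 1 or array 2 in turn, Rpl was -0.51 and -0.17, Rps -0.17 and 0.08, Mrpl 0.214 and 0.226, Mrps 0.227 and 0.165, Rpl minus Rps -0.346 and -0.252, Mrpl minus Mrps -0.013 and 0.061, and cytosolic minus mitochondrial -0.66 and -0.30, so the sign of Rps turned without array 2 and that of Mrpl minus Mrps without array 1. Single genes changed sign under centring over all probes: Eif3e (-0.034), Hnrnpa1 (-0.23), Mrps18a (-0.13), Mrps18b (-0.0097), Mrps18c (-0.018), Rpl18 (-0.285), Rpl22l1 (-0.39), Rpl27a (-0.063), Rpl7l1 (-0.10), Rps15a (-0.33), Rps26 (-0.24), Rps27 (-0.37) and Slc25a5 (-0.16). The cause of these changes was not tested.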
